A study of Mus musculus with 3 samples.

Results

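The EGF receptor family and its ligands were followed in cells from mouse ankle synovium across plates of rising stiffness. The 8 genes were the ligands Hbegf, Areg, Ereg, Tgfa and Nrg1 and the receptors Egfr, Erbb2 and Erbb3. These genes and the gene lists used further on were chosen by name, with earlier results of these data known. All 8 were found among the 56833 genes of the table. The donor mice had the genotype Efhd1CreER; Ai9, so that a Cre recombinase driven by Efhd1 switches on the tdTomato reporter, and tdTomato-positive cells, called telocytes in the labels, were sorted. The sorted cells were grown for 24 h on collagen-coated plates of 3 stiffness levels, 0.2 kPa (called soft here), 8 kPa (intermediate) and 64 kPa (stiff), and the study asked whether matrix stiffness alters these cells. Genotype, tissue, coating and culture time were shared by all groups, and neither the age of the mice nor the number pooled is given in the sources used here. Each level had 1 library, so the differences have no replicate check, no p-value can be given, and differences between cultures cannot be told apart from differences between stiffness levels.

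Receptors of this family are tyrosine kinases of the cell surface that pair after a ligand binds and signal through RAS, RAF and ERK and through PI3K. EGFR binds amphiregulin (Areg), epiregulin (Ereg), transforming growth factor alpha (Tgfa) and heparin-binding EGF-like growth factor (Hbegf). ERBB2 has no known ligand and serves as a partner, ERBB3 binds neuregulin 1 (Nrg1) but has little kinase activity, and ERBB4 binds neuregulins, epiregulin and HB-EGF. The ligands are made as membrane-anchored precursors that metalloproteases such as ADAM17 release. In joints and other connective tissue the family is known for its part in fibroblast growth and tissue repair.

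The libraries held 25487064 (soft), 28081600 (intermediate) and 26474862 reads (stiff). Levels are given as normalized counts, the read counts scaled for each library by its size factor, and 1 read was worth 1.03, 0.943 and 1.03 of them in that order. The 8 fibroblast markers summed to 220159, 265880 and 318902 normalized counts, and 5 were higher and 3 (Pdgfra, Dcn and Lum) lower in the stiff than in the soft library. Of the 6 telocyte markers averaging 10 or more, 3 were higher and 3 (Pdgfra, Pdgfrb and Foxl1) lower, with Pdgfra at 5884, 6298 and 5118 and Cd34 at 235, 242 and 318, whereas Efhd1 itself had 10, 5 and 3 reads. All 12 macrophage markers were detected and all 12 were higher in the stiff than in the soft library. Their summed level was 29749 at 0.2 kPa, 36632.5 at 8 kPa and 63852 at 64 kPa. Of 9 markers of mast cells and basophils, 3 (Cpa3, Fcer1a and Ms4a2) had no read in any library, and the summed level of the list was 1890, 1573 and 1547 normalized counts, nearly all of it from Mcpt8 and Gata2. Of 8 lymphoid markers, 2 (Cd3e and Cd3g) had no read and the sum was 10276.5, 10598.8 and 13478, of which Thy1, a marker of fibroblasts too, made up 9842, 9953 and 12741. Of 7 keratinocyte markers, Krt14 had no read in any library, and the sum was 146, 111 and 136. The 8 Schwann cell markers summed to 367, 381 and 466, with Sox10 at 1, 5 and 1 reads. Of the 4 averaging 10 or more, 2 were higher and 2 lower in the stiff than in the soft library, with Mbp higher by a log2 ratio of 1.22. The 6 mural cell markers summed to 2367, 3277 and 3138, most of it from Cspg4. This sum was highest at 8 kPa as Ereg was, but of the 4 markers averaging 10 or more only Cspg4 and Notch3 were. The other 2 were higher at 64 than at 8 kPa, and 1 of these, Rgs5, was lower at 8 than at 0.2 kPa. The 7 skeletal muscle markers summed to 180, 313 and 649, nearly all from Acta1 (stiff to soft log2 ratio 1.88), and the 6 endothelial markers to 44.1, 58.4 and 66.7, with Kdr and Vwf higher in the stiff than in the soft library by 1.07 and 1.33. The part of these cell types in the family's levels was not tested. In bulk RNA, fewer cells of a type and less RNA per cell cannot be told apart.

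Promoters of 4 of the 8 genes, Areg, Tgfa, Egfr and Erbb2, were held in a RefSeq table for build GRCm38.p6, each from 250 bases before to 50 bases after the start of the gene. Those of Egfr and Erbb2 are printed because both receptors took nearly the same course over the 3 levels in the normalized counts. That of Areg is printed because this gene lies in a cluster of ligand genes described further on. Capitals mark matches to any of 7 motifs, searched on both strands: the cAMP response element (CRE, TGACGTCA), AP-1 (TGANTCA), TEAD (GGAATG), the GC box (GGGCGG), the TATA box (TATAAA), the E box (CACGTG) and the CArG box bound by SRF. No match overlapped another. The windows are chr5:91139349-91139648, chr11:16751953-16752252 and chr11:98412234-98412533 of GRCm38.p6, all on the plus strand.
Areg: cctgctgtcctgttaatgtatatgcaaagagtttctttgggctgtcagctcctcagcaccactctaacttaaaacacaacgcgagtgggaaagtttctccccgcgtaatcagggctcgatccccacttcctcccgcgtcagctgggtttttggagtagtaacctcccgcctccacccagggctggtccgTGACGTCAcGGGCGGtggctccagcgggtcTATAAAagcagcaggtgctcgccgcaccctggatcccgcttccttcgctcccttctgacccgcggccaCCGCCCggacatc
Egfr: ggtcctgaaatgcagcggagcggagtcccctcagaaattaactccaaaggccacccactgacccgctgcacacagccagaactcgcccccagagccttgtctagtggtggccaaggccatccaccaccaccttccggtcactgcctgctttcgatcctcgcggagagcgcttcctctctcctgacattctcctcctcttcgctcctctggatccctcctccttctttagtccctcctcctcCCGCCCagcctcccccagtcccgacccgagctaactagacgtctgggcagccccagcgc
Erbb2: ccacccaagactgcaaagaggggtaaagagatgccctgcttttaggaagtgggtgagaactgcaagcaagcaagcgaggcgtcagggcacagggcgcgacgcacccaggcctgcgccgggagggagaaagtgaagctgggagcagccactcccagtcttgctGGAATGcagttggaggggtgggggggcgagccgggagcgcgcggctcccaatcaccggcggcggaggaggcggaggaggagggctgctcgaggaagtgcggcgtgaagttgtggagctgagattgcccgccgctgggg

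The Areg window held a full CRE starting 61 bases before the gene's start and a TATA box starting 31 bases before it, with GC boxes before and after the start. A CRE was present in 1.80% of all 32544 promoters of the same length and a TATA box in 13.6%. The Egfr window held 1 GC box and no TATA box, and its GC content was 62.3%. The Erbb2 window held 1 TEAD match, present in 14.6% of promoters, and its GC content was 66.0%. None of the 3 windows held an AP-1, E box or CArG match, which says only that these letters are not in the window. The median GC content of all promoters was 53%.

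Per length, 2 ligands made up nearly all of the ligand transcript. Normalized counts per kilobase of the union of a gene's exons allow levels of different genes to be set side by side. On this scale Ereg stood at 1218 at 0.2 kPa, 1806 at 8 kPa and 1272 at 64 kPa. Hbegf followed at 301, 384 and 499. Of the summed per-kilobase level of the 11 ligand genes of the family, Ereg and Hbegf together held 96.6%, 96.3% and 96.1%. Ereg alone held 77.4%, 79.4% and 69.0%, and with the length of the canonical transcript in place of the exon union 62.7%, 65.9% and 52.1%.

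Receptors came next in the order. Erbb2 had 141, 167 and 178 normalized counts per kilobase and Egfr 74.2, 91.6 and 95.7. The ratio of Egfr to Erbb2 per kilobase was 0.527 (counting interval 0.477 to 0.583) in the soft, 0.550 (0.504 to 0.600) in the intermediate and 0.538 (0.493 to 0.588) in the stiff library. No difference in this ratio was detectable between levels in the normalized counts. With a trend with transcript length and GC content subtracted, as described further on, the stiff to soft log2 ratio was 0.23 for Egfr and -0.032 for Erbb2. Areg had 18.5, 38.6 and 31.1 per kilobase, Nrg1 6.08, 8.19 and 8.85, and Tgfa 4.65, 2.48 and 4.50. Erbb3 was lowest, at 1.79, 0.897 and 2.44 per kilobase. Egfr exceeded Erbb3 by 41.5 times in the soft library (counting interval 23.1 to 83.4), by 102 times in the intermediate (46.7 to 279) and by 39.2 times in the stiff (23.7 to 70.3). The order Ereg, Hbegf, Erbb2, Egfr, Areg, Nrg1, Tgfa, Erbb3 was the same in all 3 libraries, with either length. With the exon union, neighbours differed beyond their exact 95% Poisson counting intervals except Tgfa and Erbb3 in each library, and Nrg1 and Tgfa in the soft library. With the canonical length, the exceptions were Areg and Nrg1 in the soft and stiff libraries.

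**Figure D1:**
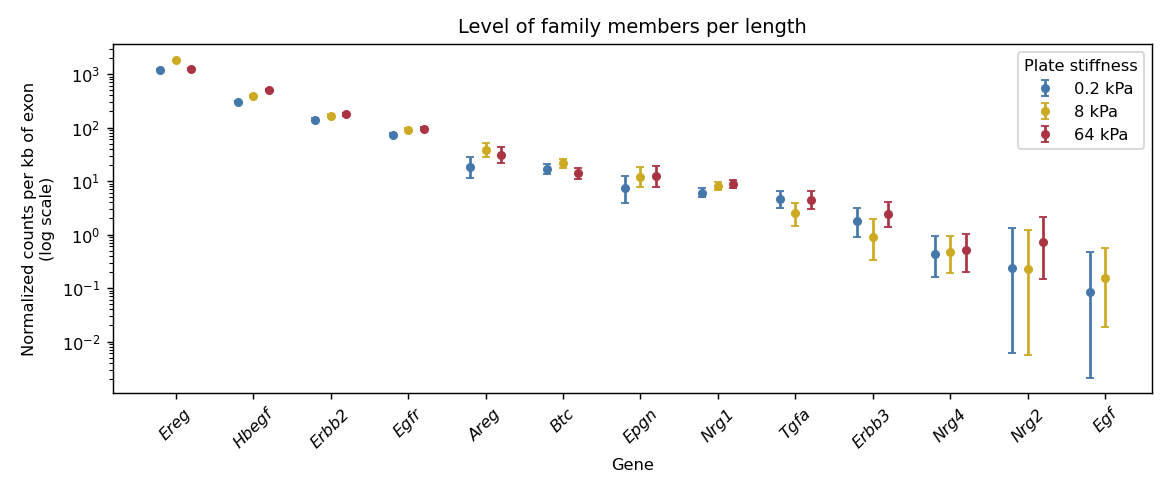
Level of each family gene per kilobase of exon, on a log axis, in the 3 libraries (colours: plate stiffness). Points are single libraries and bars are exact 95% Poisson counting intervals. Ereg and Hbegf lie highest, Erbb3 lies lowest among the 8 genes, and values of 0 (Egf at 64 kPa, Nrg3 and Erbb4 at every level) are not drawn.

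Other genes of the family were low or unread. Erbb4, the remaining receptor, and the neuregulin gene Nrg3 had no read in any library, which allows up to 3.08, 2.83 and 3.08 normalized counts, in order of stiffness. Egf itself had 1, 2 and 0 reads and Nrg2 had 1, 1 and 3. Nrg4 had 6, 7 and 7 reads. Betacellulin (Btc) stood at 76.9, 97.1 and 63.6 normalized counts and epigen (Epgn) at 13.3, 21.7 and 22.6. The stiff to intermediate log2 ratio of Btc was -0.60 (counting interval -1.09 to -0.14), and between the other pairs of libraries its intervals held 0. For Egf, Nrg2, Nrg4 and Epgn every such interval held 0.

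Ereg and Areg lie in a cluster of ligand genes. On chromosome 5 of GRCm39, Epgn (91175323 to 91183074), Ereg (91222157 to 91241505) and Areg (91287451 to 91296291) lie on the plus strand and Btc (91505120 to 91550883) on the minus strand, within 375.6 kb, and no other protein-coding gene lies between them in GENCODE vM39. The reads of these neighbours differed widely. In the soft library Ereg had 5291 reads, Areg 22, Epgn 13 and Btc 75. Per kilobase, Ereg exceeded Areg by 66.0 times in the soft (counting interval 43.6 to 105), 46.8 times in the intermediate (35.5 to 63.1) and 41.0 times in the stiff library (29.7 to 58.2).

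Across stiffness, none of the 5 genes averaging 50 or more normalized counts (Hbegf, Ereg, Nrg1, Egfr and Erbb2) reached a log2 ratio of 1 in size in any comparison. Log2 ratios were computed with a pseudocount of 1, and the threshold corresponds to a doubling. The first step is soft to intermediate and the second intermediate to stiff. Of the 11873 genes meeting the same minimum, 3.6% reached it for stiff against soft, 0.168% for intermediate against soft and 1.25% for stiff against intermediate, so a count of 0 in 5 genes is near the background. Areg, Tgfa and Erbb3 had means of 35.9, 26.5 and 10.8 and fell under that minimum. With the minimum lowered to 10, which all 8 genes met, none passed for stiff against soft (5.75% of all genes did), Areg passed for intermediate against soft (1.5%) and Erbb3 for stiff against intermediate (3.16%). Neither call held with a pseudocount of 10 (0.81 and 0.70), nor that of Areg with upper quartile scaling (0.997). At a log2 ratio of 0.5 and the minimum of 50, Hbegf and Nrg1 passed for stiff against soft, against 15.6% of all genes. The ratio of Nrg1 fell short of 0.5 when libraries were scaled by total reads (0.48) or by upper quartile (0.48), and lay at that limit with a pseudocount of 10. Ereg alone passed for intermediate against soft (4.6% of all genes) and for stiff against intermediate (8.84%). The latter call did not hold with the length and GC trend described further on subtracted (-0.44).

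**Figure D2:**
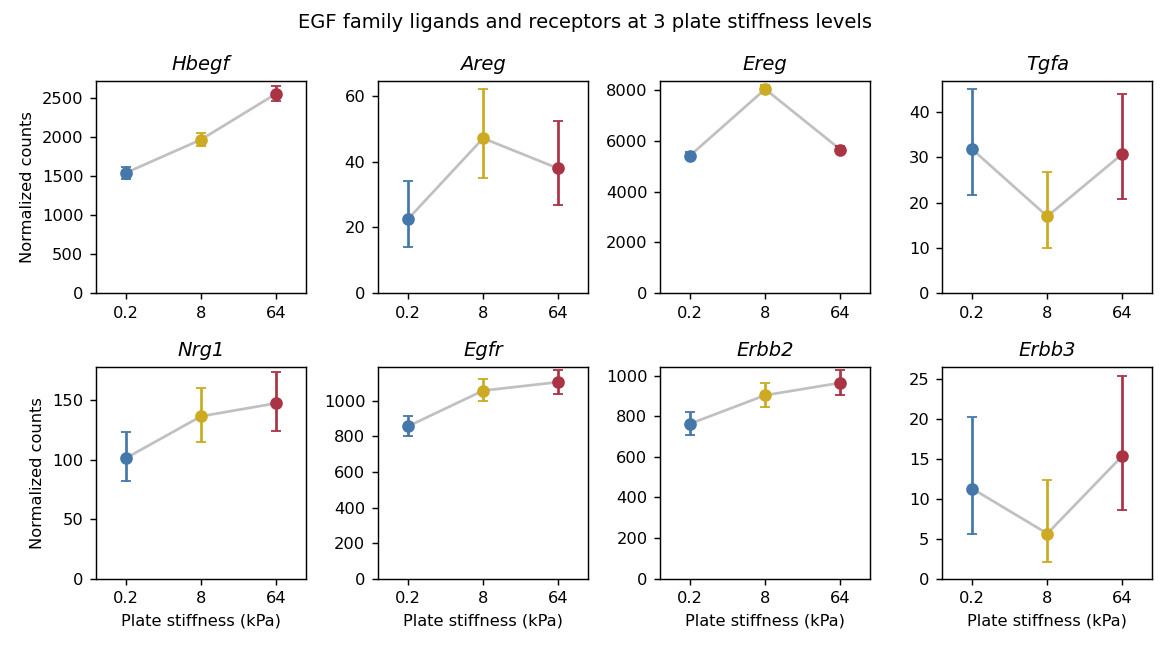
Normalized counts of the 8 genes against plate stiffness, drawn at equal spacing. Each point is 1 library and bars are exact 95% Poisson counting intervals, which cover counting error only. Hbegf, Nrg1, Egfr and Erbb2 are lowest at 0.2 kPa and highest at 64 kPa, whereas Ereg is highest at 8 kPa.

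Ereg, which encodes epiregulin, had its highest level on the intermediate plate. It had 5424 normalized counts at 0.2 kPa, 8041 at 8 kPa and 5662 at 64 kPa. The soft and stiff libraries were close to each other and the intermediate library stood above both. Its log2 ratio was 0.57 for intermediate to soft (counting interval 0.52 to 0.62) and -0.51 for stiff to intermediate (-0.56 to -0.46). Between stiff and soft it was 0.062 (0.007 to 0.12), but 0.0065 with libraries scaled by total reads and 0.004 by upper quartile. With the length and GC trend described further on subtracted, it was 0.17. Of the 11873 genes, 0.354% exceeded both other levels by at least 0.5 on the log2 scale at 8 kPa, and Ereg was 1 of these 42. This measure was chosen after the data were seen, so the share is a description and no test. The smaller margin of Ereg was 0.506, just past that limit, and 0.44 with the length and GC trend subtracted. Both steps share the intermediate library, so 1 culture decides this pattern. All 12 macrophage markers were higher in the intermediate than in the soft library, and 11 were higher in the stiff than in the intermediate, the exception being Fcgr1 at 330, 489 and 460 normalized counts. The part of those cells in the level of Ereg was not tested. Ereg has 5 exons in its canonical transcript, and an antisense lncRNA, Gm19610, shares 173 bases with its exons and had 53, 54 and 50 reads. Whether antisense reads were counted for Ereg was not tested.

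Hbegf, the heparin-binding ligand, was higher on each stiffer plate. It had 1539 normalized counts at 0.2 kPa, 1964 at 8 kPa and 2550.4 at 64 kPa, and no counting interval overlapped another. The stiff library exceeded the soft by 1.66-fold (counting interval 1.55 to 1.77), a log2 ratio of 0.73. Each step contributed about equally, with log2 ratios of 0.35 (0.26 to 0.45) and 0.38 (0.29 to 0.46). Among all genes with a mean of 50 or more, 6.59% had a higher stiff to soft ratio, and 30.2% were higher in each of the 2 steps, as were 4 of the 5 family genes above that minimum. Of these 4, only Hbegf had a counting interval above 0 in the second step. With the length and GC trend described further on subtracted, the count of 4 was 3. Of the 12 macrophage markers, 11 had the same order over the 3 libraries as Hbegf (Fcgr1 did not), and the part of those cells in its level was not tested. The gene lies on the minus strand of chromosome 18 at 36637980 to 36649677 (GRCm39). Its exons overlap those of the antisense lncRNA Gm41698 by 831 bases, and the strand setting of the counting is not given in the sources used here.

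The relation between the leading ligands therefore differed by plate. Per kilobase, Ereg exceeded Hbegf by 4.05 times in the soft library (counting interval 3.82 to 4.29), by 4.70 times in the intermediate (4.48 to 4.93) and by 2.55 times in the stiff (2.43 to 2.67). The 3 intervals did not overlap. This ratio of 2 genes within a library does not depend on how libraries were scaled, but its size depends on the transcripts assumed. With the length of the canonical transcript, an alternative added after seeing the data, it was 1.89 (1.78 to 2.00), 2.19 (2.09 to 2.30) and 1.19 (1.13 to 1.25). How the ratio differs between libraries is the same with either length.

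Nrg1, the neuregulin that binds ERBB3 and ERBB4, was low in all libraries. It had 101 normalized counts at 0.2 kPa, 137 at 8 kPa and 148 at 64 kPa. Stiff against soft gave a log2 ratio of 0.54 (counting interval 0.16 to 0.93), and stiff against intermediate one of 0.11 (-0.23 to 0.45), so no difference between the 2 stiffer plates was detectable at this depth. The soft library was the lowest of the 3. Its gene covers 32303906 to 33374825 on the minus strand of chromosome 8 (GRCm39), and the union of its exons is 16689 bases against 6879 in the canonical transcript, so its level per kilobase rests on the transcripts assumed.

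Areg and Tgfa, both ligands of EGFR, were covered by few reads. Areg had 22 reads at 0.2 kPa, 50 at 8 kPa and 37 at 64 kPa, or 22.6, 47.1 and 37.9 normalized counts. Intermediate exceeded soft by 2.09-fold, with a counting interval from 1.24 to 3.62, and the stiff to soft fold of 1.68 had an interval from 0.967 to 2.99. Tgfa ran the other way over the first step, with 31 reads at 0.2 kPa, 18 at 8 kPa and 30 at 64 kPa, or 31.8, 17.0 and 30.8 normalized counts. Its intermediate to soft fold was 0.534 (counting interval 0.281 to 0.985). The soft and stiff levels of Tgfa were close, at a fold of 0.968 (0.566 to 1.65). Tgfa lies at 86172041 to 86252728 on the plus strand of chromosome 6 (GRCm39).

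Egfr and Erbb2 took nearly the same course in the normalized counts. Egfr, the receptor for Ereg, Hbegf, Areg and Tgfa, had 857 normalized counts at 0.2 kPa, 1058 at 8 kPa and 1105 at 64 kPa. Erbb2, its preferred partner, had 763, 903 and 964. For both genes the soft library was lowest and its counting interval lay below those of the stiffer plates. The stiff to soft log2 ratio was 0.37 for Egfr (counting interval 0.24 to 0.50) and 0.34 for Erbb2 (0.20 to 0.48). Most of each difference lay in the first step, at 0.30 for Egfr and 0.24 for Erbb2, and between stiff and intermediate both intervals held 0, at 0.06 (-0.06 to 0.19) and 0.09 (-0.04 to 0.23).

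The size of the Erbb2 ratio depended on whether a trend of the ratios with transcript length and GC content was subtracted. With the 13923 genes that have a GC content and length put in 5 equal bins by GC content, the median stiff to soft log2 ratio was -0.099 in the lowest bin and 0.11 in the highest, and in bins by length -0.10 and 0.14. The canonical Erbb2 transcript has a GC content of 57.6%. The local trend at its length and GC content was 0.37 between stiff and soft. With that trend subtracted, the log2 ratio of Erbb2 was -0.032 for stiff against soft, 0.048 for the first step and -0.073 for the second. For Egfr, with a GC content of 44.4%, the trend was 0.13 and the stiff to soft ratio after subtraction was 0.23. Hbegf, whose trend was 0.001, kept a ratio of 0.73. Egfr lies at 16702198 to 16868158 and Erbb2 at 98303203 to 98328542, both on the plus strand of chromosome 11 (GRCm39), with 28 and 27 exons in their canonical transcripts.

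Erbb3, the neuregulin receptor, had 11 reads at 0.2 kPa, 6 at 8 kPa and 15 at 64 kPa, or 11.3, 5.66 and 15.4 normalized counts. The 3 counting intervals overlapped. The stiff to intermediate fold of 2.72 had an interval from 0.997 to 8.56 and the stiff to soft fold of 1.36 one from 0.585 to 3.28, so no difference in Erbb3 was detectable at this depth. Erbb3 lies at 128403392 to 128425811 on the minus strand of chromosome 10 (GRCm39).

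**Figure D3:**
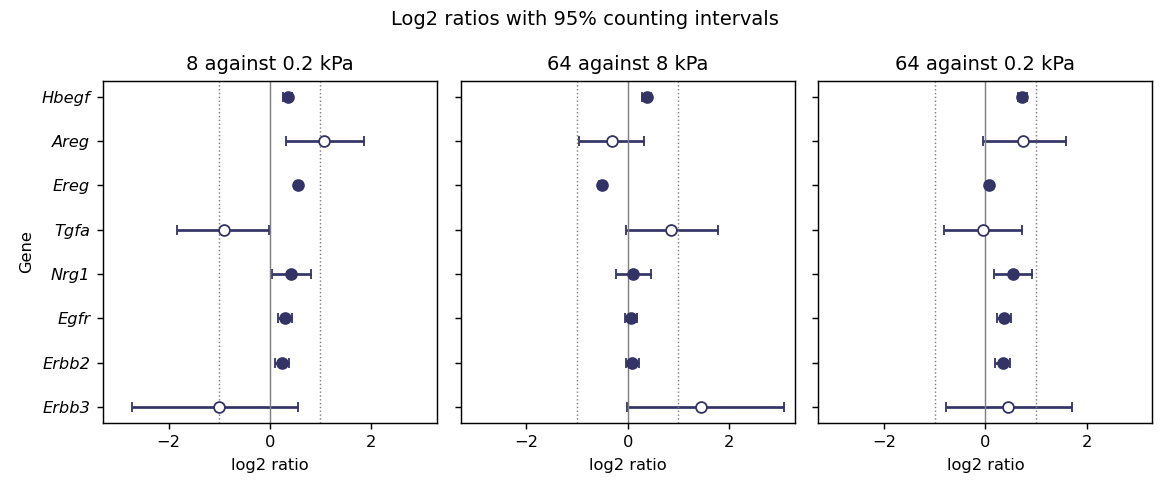
Log2 ratios of the 8 genes, without a pseudocount, in the 3 comparisons, with exact 95% Clopper-Pearson counting intervals. Filled points have a mean of at least 50 normalized counts, open points a lower one, and dotted lines mark a log2 ratio of 1 in size. Intervals of Hbegf lie above 0 in every panel, and that of Ereg lies above 0 for 8 and for 64 against 0.2 kPa and below 0 for 64 against 8 kPa.

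Counting error is small beside what many genes showed. For stiff against soft the counting interval lay above 0 for all 5 genes with a mean of at least 50, and for 31.3% of all such genes. That count of 5 is for the normalized counts as given. The interval of Ereg began at 0.007, above its ratio by total reads (0.0065) or upper quartile (0.004). After the length and GC correction Erbb2 had a ratio of -0.032. Between intermediate and soft the counting interval again lay above 0 for all 5, against 21.8% of all genes. There the corrected ratio of Erbb2 was 0.048. Between stiff and intermediate the counting interval lay above 0 for Hbegf alone and below 0 for Ereg alone, against 26.3% and 22.0% of all genes. The median log2 ratio over the 8 genes was 0.39, 0.33 and 0.10 in the 3 comparisons, and over all 14291 genes averaging 10 or more it was 0.00, 0.01 and 0.01. These medians are before the length and GC trend was subtracted. Subtracting it lowered the stiff to soft ratios of Tgfa, Egfr, Erbb2 and Erbb3 and raised those of Areg and Ereg. The number of the 8 genes higher in the stiff library was then 6 in place of 7.

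Likeness of course was measured as the distance between the pairs of log2 ratios to the soft library, over 3 libraries and among 11408 other named genes with a mean of at least 50. The genes nearest to Ereg were Clec7a, at a distance of 0.022, Stap1 at 0.026 and Dusp5 at 0.032. Clec7a encodes the receptor dectin-1 of myeloid cells, and Dusp5 a nuclear phosphatase of ERK. Clec7a had 1597, 2333 and 1664 normalized counts and Dusp5 had 1185, 1767 and 1264, in the order soft, intermediate and stiff. Nearest to Hbegf were Man2b2, Wnk1 and Rara at 0.018, 0.019 and 0.021, and nearest to Nrg1 were Zswim6, Fbn1 and Reep6 at 0.011, 0.014 and 0.018. For Egfr they were Fam168a, Prkcd and Scrib at 0.008, 0.012 and 0.012, and for Erbb2 Pogz and Lmna at 0.004 each. Egfr and Erbb2 were 0.067 apart, and 118 genes lay nearer to Egfr than Erbb2 did, so many genes had this course.

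**Figure D4:**
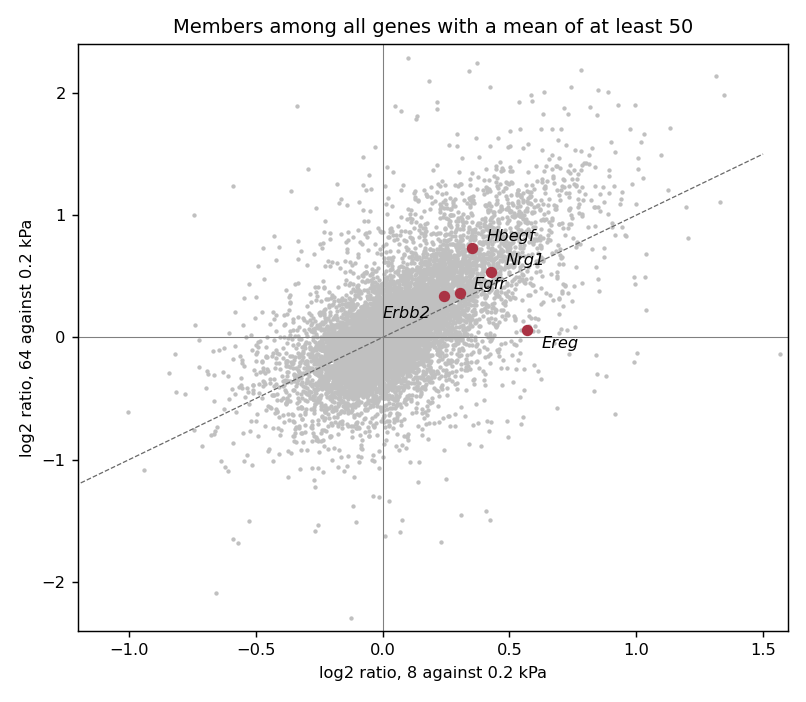
Log2 ratio of 64 against 0.2 kPa plotted over that of 8 against 0.2 kPa for genes with a mean of at least 50 (grey), with 5 genes of the family in red. On the dashed line the 8 and 64 kPa libraries are equal, both axes share the soft library, and 5 genes lie outside the plotted range. Ereg, at 0.57 and 0.06, lies below the line, and Hbegf, at 0.35 and 0.73, above it.

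Among genes that release the ligands or limit their release, the metalloprotease genes Adam17 and Adam10 differed little between the soft and the stiff plate and Adam8 was higher on the stiff one. Of the 12 genes of the list, each averaging 10 or more, 11 were higher and 1 lower in the stiff than in the soft library, with a median log2 ratio of 0.58 against 0.00 for all genes. The 11 include the inhibitor gene Timp3, and Adam17 and Adam10, whose log2 ratios were 0.0039 and 0.0061. Under other scalings between 9 and 11 were higher. Of the 11 with a mean of at least 50, only Adam8, a metalloprotease made by myeloid cells among others, passed a log2 ratio of 1, against 3.6% of all genes. It had 4127 normalized counts at 0.2 kPa, 5620.4 at 8 kPa and 9220.3 at 64 kPa, a ratio of 1.16 (counting interval 1.11 to 1.21). Its order over the libraries was that of 11 of the 12 macrophage markers, whose part in its level was not tested. The main sheddase of Ereg, Areg, Tgfa and Hbegf precursors, Adam17, was slightly higher at 8 kPa, at 2559.9, 2783 and 2567. Adam10 differed between libraries by no more than counting error, at 5258, 5357 and 5280.3. Rhbdf2, which encodes the iRhom2 partner of ADAM17, had 271, 383 and 444 normalized counts, and Adam19 had 1721, 2141 and 3325. Timp3, an inhibitor of ADAM17, had 14496, 13446 and 22164. Cd9, a tetraspanin that binds the HB-EGF precursor, was the 1 gene of the list that was lower on the stiff plate, at 22033, 19581 and 16017.

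Genes of the route from receptor to ERK all differed by less than a doubling. Of 25 adaptor and kinase genes, 16 were higher and 9 lower in the stiff than in the soft library, with a median log2 ratio of 0.12. Once the length and GC trend was taken off, 15 were higher and the median was 0.024. None of the 25 passed a log2 ratio of 1 in any comparison. Between stiff and soft the counting interval lay above 0 for 16 of the 25 and below 0 for 3, against 31.3% and 25.9% of all genes. The largest values were 0.61 for Gab2, a docking protein, and 0.51 for the kinase Src. Shc1, which had the highest mean of the list, had 10679, 10163 and 9491 normalized counts, and Akt1 stood above it in the stiff library, at 10155.5. Grb2, the adaptor that links receptors to RAS, had 3180.1, 3016 and 3179.

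Of the genes that restrain the receptors, Errfi1, Cblb and Socs5 were highest at 8 kPa beyond counting error. Of 15 attenuators with a mean of at least 50, 7 had their highest level there (between 7 and 8 under other scalings), against 23.2% of all genes. They were Errfi1, Lrig1, Lrig2, Cblb, Rnf41, Ptpn1 and Socs5, and none exceeded both other levels by 0.5. For 3 of the 15 (Errfi1, Cblb and Socs5) the counting interval lay above 0 in the first step and below 0 in the second, against 4.03% of all genes. Errfi1, which encodes the feedback inhibitor MIG6 of EGFR and ERBB2, was the most abundant of the list, with 13423, 16377 and 10295 normalized counts. Its log2 ratio was 0.29 for intermediate to soft (counting interval 0.25 to 0.32) and -0.67 for stiff to intermediate (-0.71 to -0.63). The ubiquitin ligase gene Cblb had 1817, 2468 and 2020.2. Its relative Cbl was highest on the stiff plate instead, at 1945, 2434 and 2687. The list's median log2 ratio was 0.05 for stiff against soft, 0.07 for the first step and -0.02 for the second. The stiff to soft median turned sign by total reads (-0.004), by upper quartile (-0.006) and with the length and GC trend subtracted (-0.085). With that trend subtracted, the median of the second step was -0.14. Ptk6 had no read.

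Feedback genes induced by ERK were mainly either highest at 8 kPa or higher in each step. Of 13, all with a mean of at least 50, 7 were highest at 8 kPa, also under every other scaling, against 23.2% of all genes. Another 5 were higher in each step (between 4 and 5), against 30.2% of all genes, so this count is near the background. The remaining gene was lowest at 8 kPa, and none of the 13 passed a log2 ratio of 1. Highest at 8 kPa were Dusp5, Dusp6, Spry2, Spry4, Spred1, Spred2 and Etv4. All but Spry4 and Etv4 were so beyond counting error in both steps, or 5 of the 13 genes against 4.03% of all genes. Dusp6, a cytoplasmic ERK phosphatase, had 2108, 2454 and 1932 normalized counts. The Sprouty genes Spry2 and Spry4 had 1362, 1721 and 1427.5, and 599.7, 786 and 725. Spred1 had 6676, 7468 and 5252, Spred2 1489.6, 1814 and 1613, and the ETS factor gene Etv4 675, 726 and 625. Higher in each step were Phlda1, Ier3, Dusp4, Spred3 and Etv5. Phlda1 had the largest difference of the list, at 1572, 2049 and 3009.9 and a stiff to soft ratio of 0.94 (counting interval 0.85 to 1.03). Ier3 had 5264, 5693 and 6293, Dusp4 349, 395 and 429.7, Spred3 512, 550.5 and 605, and Etv5 1509, 1538 and 1709.5. Spry1 was lowest at 8 kPa, at 244, 213 and 295.

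Among early genes that growth factors induce, Fosb and Egr3 had the largest ratios over single steps, both being highest at 8 kPa. Each of the 12 was higher in the intermediate than in the soft library (between 11 and 12 under other scalings), with a median log2 ratio of 0.46 against 0.01 for all genes. All 12 macrophage markers were also higher there, with a median of 0.43, and the part of those cells in these levels was not tested. At 8 kPa 3 of them, Fosb, Egr3 and Egr2, exceeded both other levels by at least 0.5, as did Ereg and 0.354% of all genes. Fosb passed a log2 ratio of 1 over both steps and Egr3 over the second, against 0.168% of all genes for the first step and 1.25% for the second. The factor gene Egr3 had 1324, 2495 and 856 normalized counts, with ratios of 0.91 (counting interval 0.82 to 1.01) and -1.54 (-1.66 to -1.43). Fosb had 155, 461 and 140.5. Fos, Myc, Atf3, Maff, Fosl1, Jun and Egr1, 7 of the 12, were instead higher in each step, against 30.2% of all genes, with Egr1 at 6895, 10499.8 and 11459. The list had a median of 0.42 for stiff against soft and of 0.08 for stiff against intermediate. Of the 12 genes, 5 were highest at 8 kPa, against 23.2% of all genes. With the length and GC trend subtracted, 7 were highest at 8 kPa and 5 higher in each step, and under other scalings between 5 and 6 and between 6 and 7. The same intermediate library stands behind each of these counts.

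**Figure D5:**
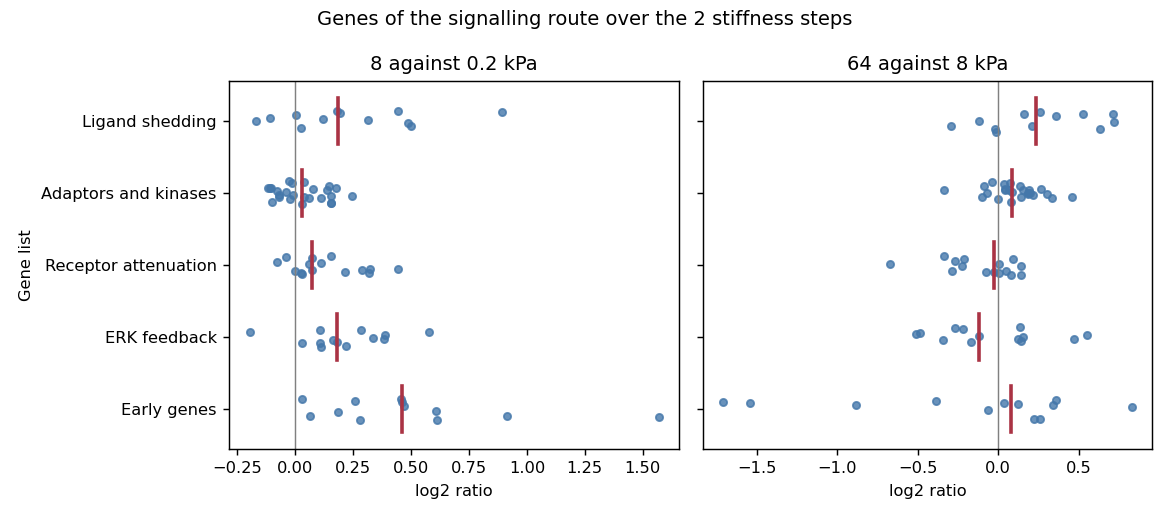
Log2 ratios of the genes with a mean of at least 10 in 5 lists of the signalling route, for the first stiffness step (left) and the second (right). Each point is a gene, its height within a row is arbitrary, and red bars mark the median of the list. Early genes lie above 0 in the first step, and Fosb, Egr3 and Egr2 lie far below 0 in the second.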

How the data were processed

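RNA of 3 libraries, 1 per stiffness level, was sequenced from stranded poly(A) libraries, per the labels' protocols. The submitters' processing notes list STAR 2.7.9a, featureCounts from Subread 2.0.1, DESeq2 1.34.0 and the build GRCm39, without parameters. The deposited signal values are, per the file names, DESeq2-normalized counts. All 3 deposited files held identical values, and columns were assigned by sample title. In each column 100% of values were whole multiples of the smallest, within a relative 1e-06, so reads were recovered by division. A count test needs replicates to estimate the spread, and none was run.

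Log2 ratios used a pseudocount of 1, which understates differences of low genes. A gene was called past a log2 ratio of 1 with a mean of at least 50. Counting intervals are exact 95% Clopper-Pearson (ratios) or Poisson (levels) intervals, and a count of 0 allows 3 reads. Amplified reads are not independent molecules, so these intervals hold nothing beyond counting error. Gene lengths and positions came from GENCODE vM39 (GRCm39), matched by symbol for 13923 of the 14291 genes averaging 10 or more. A second, short gene model carries the symbol Nrg1, and the longer model was used. Alternatives were other pseudocounts, scalings, minimum means, thresholds and subtraction of a length and GC trend (fitted locally, linearly and robustly over 300 neighbouring genes). Calculations were tested on simulated data. Genes named beside the 8 were all genes of the family and ERK feedback lists, called genes, the most abundant gene of each list, the 3 genes nearest to each of the 5 genes with a mean of at least 50 (1 of those nearest to Erbb2 is not reported here), and further list genes chosen after their values were seen. The 8 genes and all lists were chosen with earlier results of these data known. Tools were scipy 1.17.1, numpy 2.4.6, scikit-learn 1.9.0 and pandas 2.3.3 in Python 3.11.15, and edgeR 4.0.16 for TMM factors only.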

Additional observations from a re-analysis of the deposited data

How the results depend on the processing

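No paired analysis was possible because each level has 1 library, and for the same reason no library could be left out. The count of family genes past the threshold was 0 in every comparison, also under both other pseudocounts, the 4 scalings, a minimum mean of 200, a log2 ratio of at least 2 and the length and GC correction. With 0.5 as the smallest log2 ratio it was 2 between stiff and soft (Hbegf and Nrg1), 1 for the first step, soft to intermediate, and 1 for the second, intermediate to stiff (Ereg in both), against 15.6%, 4.6% and 8.84% of all genes. Without a minimum mean or with one of 10 it was 1 for the first step (Areg) and 1 for the second (Erbb3). The matching counts over all genes, from 428, 20 and 148, were 5827, 3646 and 3904 without a minimum, 822, 215 and 451 with 10, 238, 8 and 72 with 200, 1850, 546 and 1050 at 0.5, and 17, 1 and 8 at 2. They were 280, 12 and 143 with the trend subtracted, and 10 between intermediate and soft with a pseudocount of 10. Of 168 recomputed ratios of the 8 genes, 160 stayed inside their counting intervals. Those of Erbb2 between stiff and soft and between stiff and intermediate turned sign with the trend subtracted (-0.032 and -0.073). Ereg between stiff and soft was 0.0065 by total reads, 0.004 by upper quartile and 0.17 with the trend subtracted, and its smaller margin at 8 kPa, a measure chosen after seeing the data, was between 0.44 and 0.54 under all alternatives. With the trend subtracted, list medians moved to 0.024 for adaptors, -0.085 for attenuators and 0.31 for early genes between stiff and soft, and to -0.14 for attenuators and -0.036 for early genes between stiff and intermediate. The cause of these shifts was not tested. The median of attenuators between stiff and soft also turned sign by total reads (-0.004) and by upper quartile (-0.006), and that of adaptors between intermediate and soft by upper quartile (-0.005). The 4 scalings moved the median of all genes by no more than -0.058 (upper quartile, stiff to soft). Depth limits Areg, Tgfa, Erbb3 and the unread genes of the family.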
